A study of Homo sapiens with 7 samples.

Results

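CTCF intervals at enhancers are the CTCF ChIP-seq intervals of HCT116 cells that overlapped an H3K4me1 interval by at least 1 bp and overlapped no H3K4me3 interval. The rule took 7962 of the 44812 deposited CTCF intervals. Of these 7962, 5249 (65.9%) lay on H3K4me1 past the study's own limits for that mark, which the rule did not require. The 7962 were chosen by the positions of the CTCF, H3K4me1 and H3K4me3 intervals. The presence of H3K4me1 and the absence of H3K4me3 are therefore a description of the choice and support nothing here. Of the other 36850 CTCF intervals, 7305 overlapped H3K4me3 and 29545 overlapped neither mark. Enhancer is a short name for the rule, since neither enhancer activity nor contact with a promoter was measured.

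HCT116 is a human colorectal carcinoma line, and its crosslinked chromatin was sheared in plate wells (200000 cells and 100 µl each) by 6 min of PIXUL, an ultrasound instrument that treats all wells of a plate. Each antibody was used on 1 well and gave 1 library, so the ChIP-seq data had no replicates and no treatment groups. Lists of 6 of the 7 labelled libraries were used, for CTCF, H3K4me1, H3K4me3, H3K9ac, H3K36me3 and H3K27me3, and each listed interval has a fold enrichment, a ratio over local background, and a −log10 q-value. The lists hold no read counts, so depth is unknown, and the 95% intervals printed with shares (Wilson) and medians (order statistics) cover counting error only.

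The zinc-finger protein CTCF recognises a long, directional DNA sequence, and with the cohesin complex it anchors chromatin loops and limits which promoters an enhancer can reach. H3K4me1 lies over enhancers and the flanks of promoters, H3K4me3 over active promoters, and H3K9ac over active elements of both kinds. AP-1, made of FOS and JUN family proteins, binds many enhancers of epithelial cells.

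The sequence at an enhancer CTCF interval is shown first for a member near EGR1, an immediate early transcription factor gene that the study assayed by ChIP and PCR. This member, chr5:137785407-137786279 on hg19, held both primers of the study's assay upstream of EGR1, and the product of those primers, 125 bp at chr5:137785799-137785923, contained a full CTCF core. The core is a 12-base sequence found in many CTCF sites, and its match is written in capitals, 5′ to 3′.

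EGR1 (chr5:137785693-137785992, plus strand): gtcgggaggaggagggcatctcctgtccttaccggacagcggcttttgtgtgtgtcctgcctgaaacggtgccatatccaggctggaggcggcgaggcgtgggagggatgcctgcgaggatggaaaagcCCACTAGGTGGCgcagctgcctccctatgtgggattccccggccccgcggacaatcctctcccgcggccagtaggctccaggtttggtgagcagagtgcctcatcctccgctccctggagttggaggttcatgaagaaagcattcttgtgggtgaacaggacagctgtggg

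The next sequences belong to members with a core match. They are shown for high CTCF fold enrichment or for lying near other loci assayed in the study. Each line gives the core match in capitals with 24 bases on each side, on hg19 and on the strand of the core. The coordinates are those of the match, and each name is the protein-coding gene with the nearest transcription start site (TSS). The matches at TMEM235, SNAI1, RPL32 and TBX3 had no mismatch to the core, and those at GSE1, LBR, SMAD2 and SOX9 had 1 mismatch. Among the 12 members with the highest fold enrichment, those nearest FOXC2, MAPK11 and ENPP7 had no match with up to 1 mismatch.

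GSE1 (chr16:85454538-85454549, plus strand): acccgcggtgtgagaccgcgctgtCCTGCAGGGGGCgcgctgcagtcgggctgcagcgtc
LBR (chr1:225662792-225662803, plus strand): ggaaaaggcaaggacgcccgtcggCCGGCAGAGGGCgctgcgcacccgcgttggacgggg
SMAD2 (chr18:45275720-45275731, minus strand): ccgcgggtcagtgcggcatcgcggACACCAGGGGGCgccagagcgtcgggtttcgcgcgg
SOX9 (chr17:70536646-70536657, minus strand): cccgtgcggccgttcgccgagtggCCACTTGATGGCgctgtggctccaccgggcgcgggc
TMEM235 (chr17:76247122-76247133, plus strand): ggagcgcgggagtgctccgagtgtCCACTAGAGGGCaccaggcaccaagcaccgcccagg
SNAI1 (chr20:48595696-48595707, plus strand): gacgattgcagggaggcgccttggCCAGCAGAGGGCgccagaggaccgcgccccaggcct
RPL32 (chr3:12909619-12909630, plus strand): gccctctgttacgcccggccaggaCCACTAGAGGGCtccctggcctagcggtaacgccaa
TBX3 (chr12:115100580-115100591, plus strand): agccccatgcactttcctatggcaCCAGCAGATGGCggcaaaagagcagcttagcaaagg

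A further set shows the AP-1 sequence TGACTCA in members without the core, a small class with low CTCF fold enrichment. These members, at MPV17, SHISA5 and CBFA2T3, were picked after values were seen, for high H3K9ac among those with a CTCF fold enrichment over 5 and a q-value under 1e-10. The AP-1 match nearest the centre is in capitals with 24 bases on each side, and the MPV17 line starts with another match in lower case.

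MPV17 (chr2:27544128-27544134, minus strand): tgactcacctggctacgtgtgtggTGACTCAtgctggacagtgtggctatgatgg
SHISA5 (chr3:48545209-48545215, minus strand): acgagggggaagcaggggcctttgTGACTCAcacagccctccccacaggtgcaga
CBFA2T3 (chr16:88991829-88991835, minus strand): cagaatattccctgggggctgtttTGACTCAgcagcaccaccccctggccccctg

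Enhancer CTCF intervals were stronger than the remaining CTCF intervals and slightly wider. Their median fold enrichment was 9.86 (95% interval 9.70 to 10), against 6.70 (6.63 to 6.76) at the remaining intervals. Both groups of remaining intervals were lower, with a median of 6.90 for those with H3K4me3 and 6.67 for those with neither mark. The enhancer group thus had the highest median of the 3. The q-values followed the same order, with a median −log10 q of 20.5 at enhancers, 10.9 with H3K4me3 and 10.3 with neither mark.

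The stricter limits of the study, a fold enrichment over 5 with a q-value under 1e-10, were given for histone marks such as H3K4me3 and H3K9ac. None were named for CTCF, and these were used here for it. At enhancers 5686 intervals passed them, 71.4% (70.4 to 72.4%), beside 54.8% of all CTCF intervals. The shares with H3K4me3 (51.4%) and with neither mark (51.1%) lay close together, so the enhancer group stood apart from both. The middle 50% of the members had a fold enrichment between 6.01 and 13.7, and the middle 50% with H3K4me3 ranged from 4.07 to 13.6. The H3K4me3 group thus held more weak intervals. It also reached higher at its upper end, with a 90th percentile of 19.6 against 17.4 at the members and a highest value of 42.1 against 39.0.

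The width of an interval says over what length CTCF signal exceeded background. The median width was 734 bp (728 to 739 bp) at enhancers and 637 bp (634 to 639 bp) at the remaining intervals. The members lay between the intervals with neither mark, at 611 bp, and those with H3K4me3, at 868 bp. A wide interval has more room to touch an H3K4me1 interval, so width was not independent of the choice. Among CTCF intervals up to 517 bp wide, median fold enrichment was 4.30 at enhancers and 4.32 with neither mark, a difference within the intervals of the medians. Among those over 823 bp, it was 12.3 at enhancers and 8.79 with neither mark. Against intervals with neither mark, the higher fold enrichment of the members was therefore seen at the widest intervals and not at the narrowest. Against intervals with H3K4me3 it was seen at both, with 3.89 for H3K4me3 up to 517 bp and 10.1 over 823 bp.

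**Figure D1:**
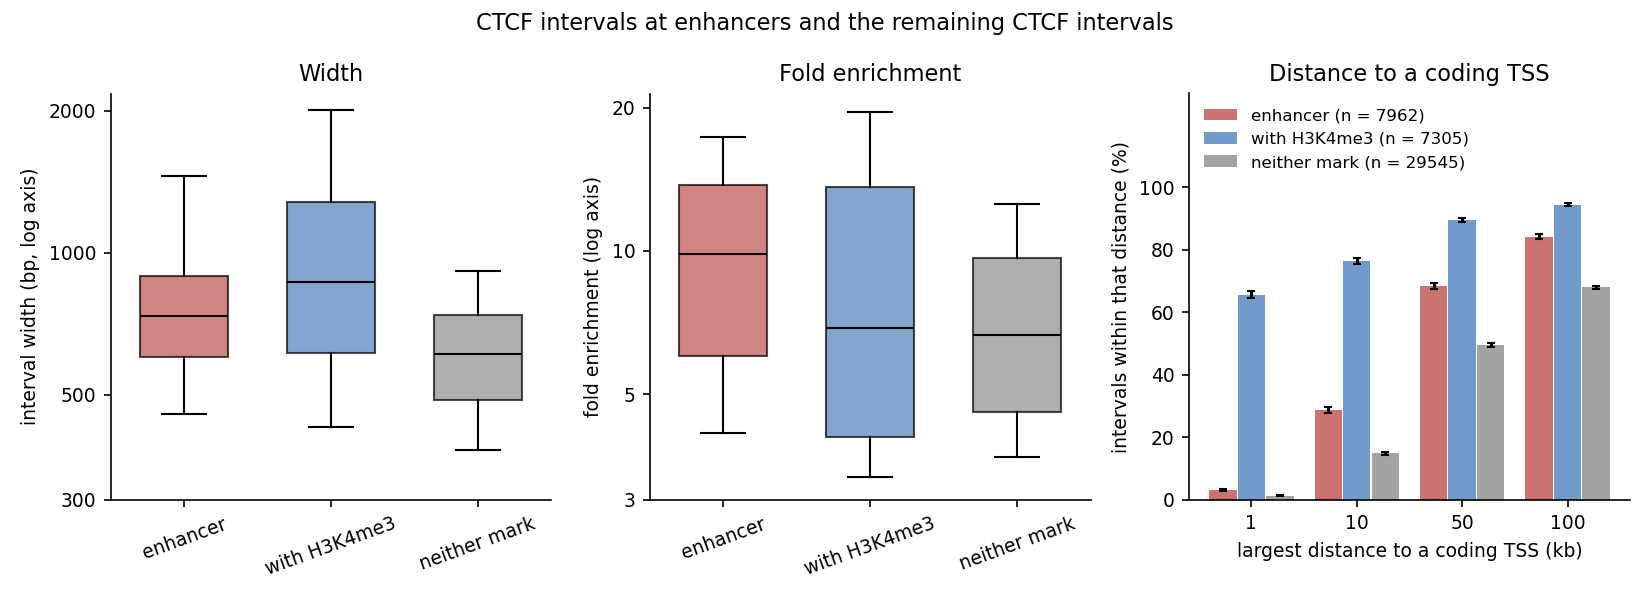
Left and middle, boxes give the median and the middle 50% of interval width (bp, log axis) and fold enrichment (log axis) of CTCF intervals, with whiskers from the 10th to the 90th percentile. Right, bars give the percent of intervals with a coding TSS within 1, 10, 50 or 100 kb, with 95% Wilson intervals. The enhancer group has the highest median fold enrichment and lies between the other groups in width and in distance.

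H3K9ac is an acetylation found at active promoters and enhancers, and the rule did not use it. Most enhancer CTCF intervals overlapped an H3K9ac interval, 4842 of 7962 or 60.8% (59.7 to 61.9%), beside 29.6% of all CTCF intervals. The share was 22.8% at the remaining intervals, a group that mixed opposite values. It was 98.5% at CTCF intervals with H3K4me3 and 4.08% at those with neither mark. Enhancer CTCF intervals thus took a middle place, far from both.

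Most of this H3K9ac was weak. An H3K9ac interval past the study's limits was met by 701 members, 8.80% (8.20 to 9.45%), beside 15.5% of all CTCF intervals. The same share was 84.1% with H3K4me3 and 0.264% with neither mark. With the limits applied to all lists, the rule took 4283 CTCF intervals, 14.3% of them overlapped H3K9ac, and the difference from the remaining intervals went from 38.0 to 0.0788 percentage points (−1.05 to 1.26). For the 7962 members, the difference from the remaining intervals in H3K9ac past its limits was −8.08 percentage points (−8.80 to −7.34), opposite in sign to that in all H3K9ac. Against intervals with neither mark, the members had more H3K9ac past its limits, by 8.54 percentage points (7.93 to 9.18).

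The members fell into 3 groups by H3K9ac, and the groups differed in place as well as in acetylation. The 701 members on H3K9ac past its limits lay close to genes, with a median distance of 3771 bp (3469 to 4430 bp) to the nearest coding TSS. The 4141 members on weaker H3K9ac had a median distance of 25842 bp, and the 3120 members without H3K9ac had 29215 bp. A coding TSS lay within 10 kb of 67.8% of the members in the strongest group, 24.9% in the middle group and 24.7% in the group without H3K9ac. The strongly acetylated members were thus mostly near gene starts although none overlapped H3K4me3, which the rule fixed.

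CTCF itself did not follow acetylation in the same order. Median CTCF fold enrichment was highest, 10.9 (10.7 to 11.1), in the middle group. It was 8.28 (7.80 to 9.14) in the group on the strongest H3K9ac and 8.83 (8.59 to 9.08) in the group without H3K9ac. The H3K4me1 intervals under the members did follow it, with a median width of 5915 bp under the strongest group, 1491 bp under the middle group and 826 bp under the members without H3K9ac. H3K36me3, a mark of transcribed gene bodies, overlapped 28.1% of the strongest group and 10.4% and 10.6% of the other groups.

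Among the members, H3K9ac was more frequent at stronger CTCF intervals. When the members were split at 6.01, 9.86 and 13.7 into 4 groups of equal size by CTCF fold enrichment, the share with H3K9ac was 54.2%, 55.7%, 62.4% and 70.9%. The share on H3K9ac past its limits ran the other way, with 12.2% in the weakest group and 6.88% in the strongest. CTCF intervals with neither mark, split at the same bounds, had H3K9ac in 1.4%, 3.37%, 8.30% and 14.4%. So H3K9ac was more frequent at strong CTCF intervals with and without H3K4me1, and the members were above the neither-mark intervals in each of the 4 ranges. Width went with it: at members over 823 bp wide the share was 70.1%, and at those up to 517 bp it was 52.4%. The part of interval width in these shares was not tested.

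The same question can be put from the side of H3K4me1. Of the 33389 H3K4me1 intervals without H3K4me3, 6912 (20.7%) overlapped a CTCF interval. H3K9ac overlapped 62.3% (61.2 to 63.4%) of those with CTCF and 40.6% (40.0 to 41.2%) of those without. The intervals with CTCF were not wider, with a median of 1054 bp against 1171 bp, and their median H3K4me1 fold enrichment was 3.97 against 3.81. Among H3K4me1 intervals up to 600 bp wide, 33.5% of those with CTCF had H3K9ac and 10.4% of those without. The shares were 52.3% and 17.0% from 600 to 1000 bp, and 68.6% and 41.7% from 1000 to 2000 bp. The share was thus higher beside CTCF in each of these ranges, with the widest gap from 600 to 1000 bp. The shares came closer at wider intervals, at 84.6% and 75.7% from 2000 to 4000 bp and 98.6% and 96.4% over 4000 bp. For H3K9ac past its limits the shares over all widths were 2.49% (2.15 to 2.88%) with CTCF and 1.98% (1.82 to 2.15%) without, so the gap was one of weak H3K9ac.

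**Figure D2:**
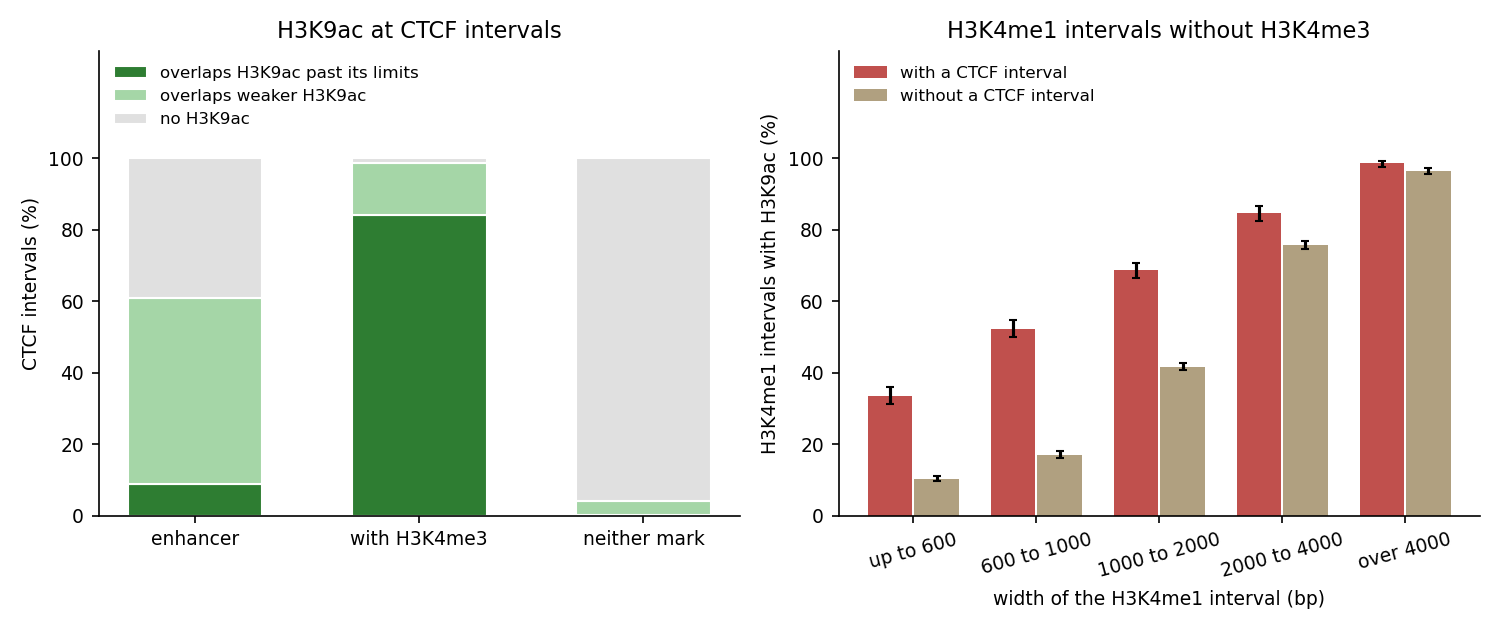
Left, bars split the CTCF intervals of each group (percent) by overlap with H3K9ac past the study's limits, weaker H3K9ac or none. Right, bars give the percent of H3K4me1 intervals without H3K4me3 that overlap H3K9ac, by width of the H3K4me1 interval (bp) and with or without CTCF, with 95% Wilson intervals, and the gap between the bars is widest from 600 to 1000 bp and narrowest over 4000 bp.

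Enhancer CTCF intervals were spread over introns, exons and the space between genes much as all CTCF intervals were, and differed from the other groups in distance to gene starts. Of their centres, 41.9% lay in introns of coding genes, 37.1% between genes, 12.7% in non-coding genes or pseudogenes and 8.26% in exons of coding genes. For all CTCF intervals these shares were 40.8%, 34.7%, 13.6% and 10.8%. The median distance to the nearest coding TSS was 24832.5 bp (23841 to 25830 bp) at enhancers and 35700 bp (34842 to 36574 bp) at the remaining intervals. The remaining intervals again joined opposite groups, with a median of 45 bp with H3K4me3 and 50750 bp with neither mark. A coding TSS lay within 50 kb of 68.5% of the members and of 49.6% of the intervals with neither mark, so the members were the nearer of the groups without H3K4me3.

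Few members held a gene start. A coding TSS lay inside 104 members, 1.31% (1.08 to 1.58%), beside 8.25% of all CTCF intervals. The share was 47.3% with H3K4me3 and 0.460% with neither mark, so the members lay between these groups. These distances depend on which starts are counted. With all transcript starts of coding genes, the median distance of the members was 10516 bp and the difference from the remaining intervals −4063 bp in place of −10867.5 bp. With the starts of all annotated genes, the median was 9212 bp and the difference −1891 bp. The members were nearer than the remaining intervals with each of these sets of starts.

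The members were unevenly spread over the chromosomes. They made up 29.9% (28.0 to 31.9%) of the CTCF intervals on chromosome 17 and 27.1% (25 to 29.2%) on chromosome 19, which are rich in genes. On the X chromosome they made up 6.42% (5.20 to 7.89%). H3K4me1 intervals, which the rule used, were also dense on chromosomes 17 and 19, with 36.7 and 40.4 per Mb, and sparse on X, with 5.77 per Mb. The members also lay closer to other CTCF intervals, with a median gap of 10307 bp (9964 to 10732 bp) to the next CTCF interval, against 16949 bp (16703 to 17299 bp) for intervals with neither mark.

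H3K36me3 and H3K27me3 mark transcribed gene bodies and Polycomb-silenced chromatin, and neither entered the rule. H3K36me3 overlapped 956 members, 12% (11.3 to 12.7%), beside 10.5% of all CTCF intervals, so the members were near the background. Of the H3K36me3 intervals 0.225% passed the study's limits, and those overlapped 9 members, so the H3K36me3 shares rest almost wholly on weaker intervals. H3K27me3 overlapped 226 members, 2.84% (2.50 to 3.23%), beside 5.71% of all CTCF intervals. The share was 6.67% at the intervals with neither mark, so the members were at the low end for all H3K27me3 intervals. For H3K27me3 past its limits the shares were 0.766% at the members and 0.931% with neither mark, and the difference, −0.165 percentage points (−0.370 to 0.0754), was not clear of 0. Interval names in the H3K27me3 list carry HTON in place of the cell line's name, and the effect of this on the share was not tested.

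The CTCF core was more frequent at enhancer CTCF intervals than at those with H3K4me3, and the comparison with intervals with neither mark depended on the search. In the 300 bp around the centre, 1200 members, 15.1% (14.3 to 15.9%), held it without mismatch, beside 13.2% of all CTCF intervals. The share was 15% with neither mark and 4.02% with H3K4me3, and the difference from neither mark, 0.0707 percentage points (−0.802 to 0.969), was not clear of 0. Searched over the whole interval, which was wider at the members, the exact core lay in 19.1% of the members and 16.7% of the intervals with neither mark, a difference of 2.42 points (1.47 to 3.39). Of all 300-bp windows of hg19, 0.110% held the core. In the 300 bp, the difference between the members and the remaining intervals was 2.25 percentage points, and it turned to −1.41 (−2.65 to −0.125) when the study's limits were applied to all lists. With the limits on the CTCF list alone it was 0.628 (−0.523 to 1.81), so the higher share of the members did not hold at strong CTCF intervals.

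Letting 1 base of the core differ took in many more members. The share was then 47.1% (46 to 48.2%) of the members, beside 44.1% of all CTCF intervals and 1.53% of the genome windows. The shares were 49.5% with neither mark and 19.0% with H3K4me3. In the 300 bp the members were thus below neither mark, with a difference of −2.37 points (−3.61 to −1.14). Searched over the whole interval, the sign turned. The share was then 59.6% of the members and 55.3% with neither mark, a difference of 4.31 points (3.09 to 5.52). The core lay near the middle of the members. Of 1524 members with an exact core anywhere in the interval, 56.4% had it within 50 bp of the centre, at a median offset of 43 bp (40 to 46 bp). The same share was 64.9% with neither mark, at a median offset of 34 bp, and 29.1% with H3K4me3, at 128 bp. Cores of the members were thus less central than those with neither mark. The cores of the members lay on the plus strand of hg19 in 51.3% (48.8 to 53.8%) of cases. The share was 50.1% with neither mark and 51.4% with H3K4me3. The plus strand is a convention of the assembly, so these shares say nothing about direction relative to a gene or loop.

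The share with the core was higher at stronger members. In the 4 groups of members by CTCF fold enrichment, the share with the exact core in the 300 bp was 4.57%, 10.6%, 17.7% and 27.4%. Intervals with neither mark, split at the same bounds, had 7.45%, 16.3%, 25% and 32.1%. At like fold enrichment, then, the members held the exact core in the 300 bp less often than the intervals with neither mark. The whole interval was not searched by range of fold enrichment. More of the members were strong, and over all fold enrichments the shares in the 300 bp were 15.1% and 15%.

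AP-1 gave the opposite picture. The sequence TGACTCA, searched on both strands, lay in the 300 bp of 632 members, 7.94% (7.36 to 8.55%), beside 4.68% of all CTCF intervals. The share was 4.29% with neither mark, 2.68% with H3K4me3 and 4.58% of all 300-bp windows of hg19. The members were thus the group in which AP-1 was above the genome's own level. Base composition differed between the groups, with a median GC of 52.2% at the members, 44.7% with neither mark and 67.3% with H3K4me3, and its part in these shares was not tested.

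AP-1 was concentrated at the weaker enhancer CTCF intervals. From the weakest to the strongest of the 4 groups by CTCF fold enrichment, the share of members with TGACTCA was 11.8%, 8.89%, 6.03% and 5.02%. At the intervals with neither mark it was 4.58%, 4.06%, 4.09% and 4.10% over the same ranges, without such an order. The share with AP-1 among the members therefore moved against the share with the core. Median GC of the members was 50.3%, 49.7%, 51.3% and 57.7% in the same groups. It was thus highest in the strongest group, and its part in the AP-1 shares was not tested here either.

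**Figure D3:**
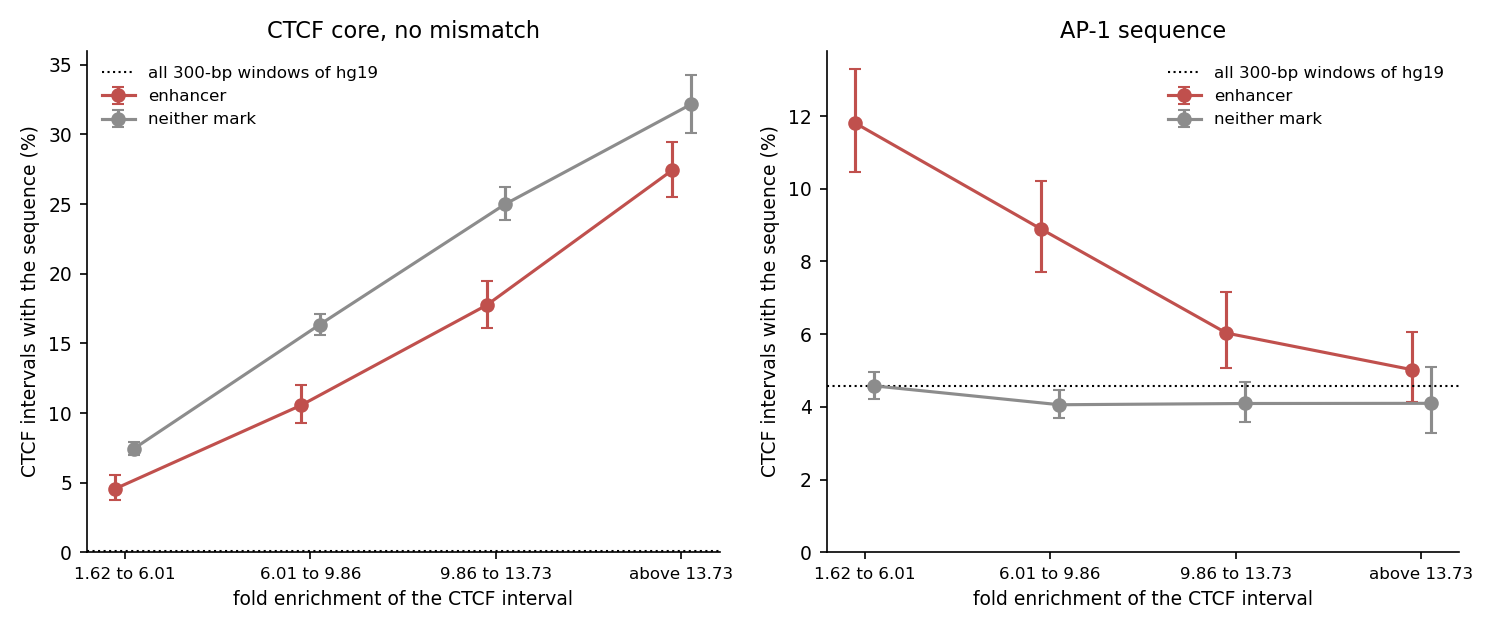
Points give the percent of CTCF intervals with the core (left, no mismatch) or the AP-1 sequence (right) in the 300 bp around the centre, for 4 ranges of CTCF fold enrichment, with 95% Wilson intervals. Dotted lines give all 300-bp windows of hg19, and at the enhancer intervals the core rises and AP-1 falls from weak to strong.

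Members with different sequences differed in CTCF strength. The 3496 members with a core of up to 1 mismatch and no AP-1 had a median fold enrichment of 11.9 (11.7 to 12.1), and 84.4% passed the limits. The 376 members with AP-1 and no such core had a median of 6.39 (5.96 to 6.87), and 46.8% passed. The 256 members with both had 9.75, and the 3834 with neither had 8.23. H3K9ac overlapped between 60.2% and 63.6% of the members in each of these 4 classes. The class with AP-1 and without the core thus had the lowest CTCF median of the 4. By H3K9ac, the exact core lay in 12.6% (10.3 to 15.2%) of members on H3K9ac past its limits and in 16.1% (14.9 to 17.5%) of those without H3K9ac.

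The members at MPV17, SHISA5 and CBFA2T3 belong to the class with AP-1 and without the core, and were picked for high H3K9ac. Their CTCF fold enrichments all lay above the median of that class, 6.39. They lay 1659, 3179 and 51392 bp from the nearest coding TSS, in that order. The member in an intron of MPV17, a mitochondrial inner membrane protein gene, had a CTCF fold enrichment of 8.49 on H3K9ac with a fold enrichment of 12.1. The member near SHISA5 had 7.40 for CTCF and 9.0 for H3K9ac. The member in CBFA2T3, a transcriptional corepressor gene, had 9.01 for CTCF and 7.39 for H3K9ac.

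The H3K4me1 intervals put the AP-1 share of the members into proportion. In the 300 bp around the centre of H3K4me1 intervals without H3K4me3, TGACTCA lay in 22.9% (22.4 to 23.4%) of those without CTCF. It lay in 10.5% (9.83 to 11.3%) of those with CTCF. H3K4me1 intervals with CTCF therefore held AP-1 less often at their centres than other H3K4me1 intervals, although their CTCF intervals held it more often than CTCF intervals elsewhere. The exact core lay at 6.02% of the centres with CTCF and 0.106% of those without, near the 0.110% of the genome.

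Other short sequences of intestinal and epithelial factors were not clearly above both other groups of CTCF intervals, as AP-1 was. The TCF/LEF sequence ATCAAAG, of the Wnt pathway, lay in 3.17% of the members, 3.68% of all CTCF intervals and 5.0% of the genome windows. The members lay between the intervals with H3K4me3, at 1.26%, and those with neither mark, at 4.41%. The TEAD sequence ACATTCC, of the Hippo pathway, lay in 4.26% of the members, 3.99% of all CTCF intervals and 4.33% of the windows. The GATA sequence AGATAA lay in 10.9% of the members, 13.8% of all CTCF intervals and 21.2% of the windows. Here too the members lay between the intervals with H3K4me3, at 4.87%, and those with neither mark, at 16.7%. GC ran in the reverse order, at 40.9% over the windows and medians of 44.7% with neither mark, 52.2% at the members and 67.3% with H3K4me3. The part of GC in the TCF/LEF and GATA shares was not tested. The HNF4 sequence CAAAGTCCA lay in 46 members, 0.578% (0.433 to 0.770%), in 0.420% of all CTCF intervals and in 0.385% of the windows. Its difference from intervals with neither mark was 0.148 percentage points (−0.0177 to 0.352), so none was detectable. ATCAAAG and CAAAGTCCA share the letters CAAAG, so 1 place can contribute to both. A match is a description of letters, and the absence of a match says nothing about the factor.

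Many members crossed an edge of their H3K4me1 interval. H3K4me1 covered 3284 members over their full length, 41.2%, and at least 50% of the length of 6019 members. The centre of 1739 members, 21.8%, lay outside the H3K4me1 interval they touched. When each H3K4me1 interval was divided into 10 equal parts, the inner 4 held 47.8% of the member centres that lay inside. The centres were thus mildly concentrated in the middle of H3K4me1 intervals and present over their whole length. H3K4me1 intervals that held a member numbered 7781, and 925 of these touched H3K4me3 at another place. Most held 1 member (7601), and 180 held 2 or more.

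**Figure D4:**
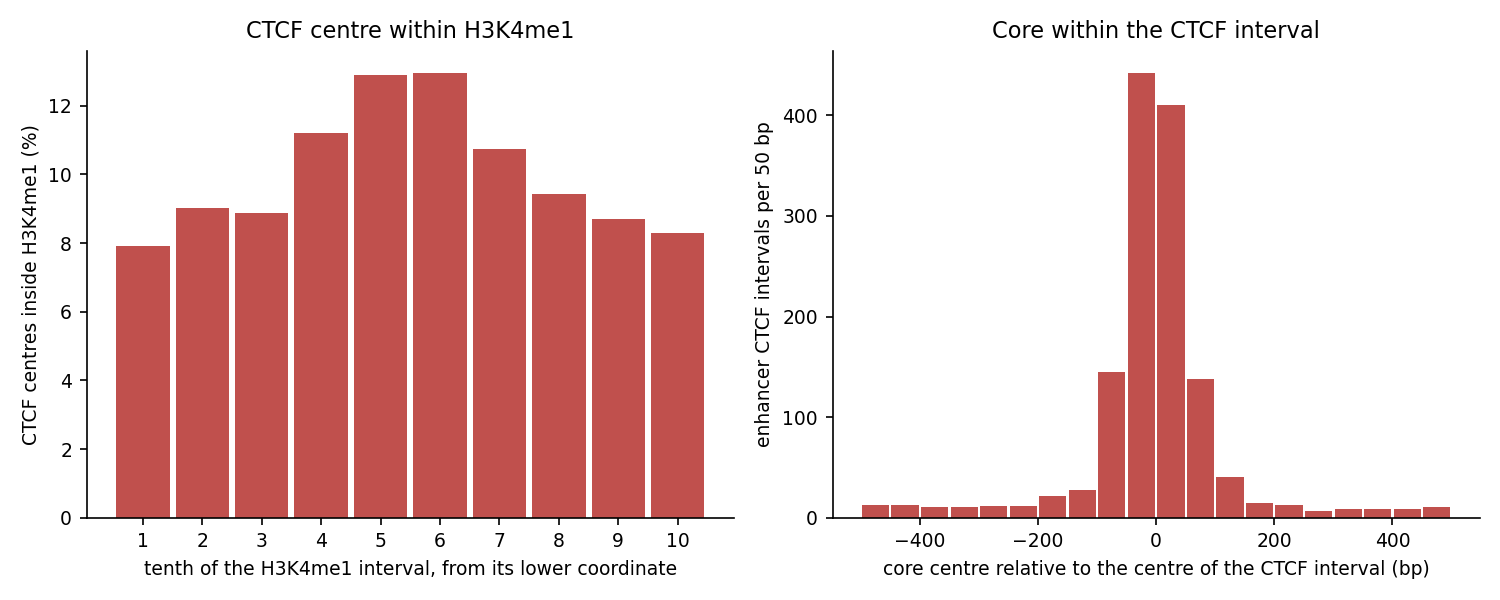
Left, bars give the percent of enhancer CTCF centres in each of 10 equal parts of the H3K4me1 interval around them, with slightly more in the middle. Right, bars count enhancer CTCF intervals by the distance of an exact core from the centre of the CTCF interval (bp, in steps of 50 bp), and most cores lie close to 0.

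Some H3K4me1 intervals held several members. The largest number was 5, in an H3K4me1 interval of 19207 bp at HM13, a gene for a signal peptide peptidase, on chromosome 20, and this interval also touched H3K4me3 at another place. The CTCF fold enrichment of these 5 members ran from 3.31 to 17.8. A further 14 held 3 members each, and the 4 first in genome order are named. An H3K4me1 interval of 8335 bp at F11R, which encodes a tight junction adhesion protein, held 3 members with fold enrichments from 4.58 to 11.9. Intervals at CPOX, a heme synthesis gene, and at ARL14EPL also held 3 each, and the one at CPOX touched H3K4me3 at another place. A further interval with 3 members, on chromosome 1 at 228747661 to 228771112, covered the 5S ribosomal RNA genes. Fold enrichment there was low, between 2.50 and 3.17, and the genes of this cluster are copies of 1 unit.

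The strongest enhancer CTCF interval lay in an intron of GSE1, a coiled-coil protein gene, at chr16:85452894-85455014. Its fold enrichment was 39.0 and its width 2121 bp, and it overlapped no H3K9ac. Its H3K4me1 interval was only 392 bp wide, with a fold enrichment of 4.43. This member thus joined the highest CTCF value of the group to a small patch of H3K4me1.

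Other members among the 12 strongest are described here with their nearest coding gene, which names a position and no target. The member at chr16:86597178-86598077, 2358 bp from the TSS of FOXC2, a forkhead factor of mesenchyme and lymphatic vessels, had a fold enrichment of 36.9. A member in the non-coding gene LINC00511 had 33.3, and its nearest coding TSS, 418984 bp away, was that of SOX9, a factor of intestinal crypts and cartilage. The member at chr20:48595268-48596205 was 3312 bp from the TSS of SNAI1, a repressor that drives epithelial to mesenchymal transition, with a fold enrichment of 30.3 on H3K9ac of 6.28. These members carried H3K9ac, and the SNAI1 member held an exact core.

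The members with nearest coding gene SMAD2, TRIM33 or LBR lay beyond the members' median distance from a coding TSS. The one nearest SMAD2, a transducer of TGF-beta signals, had a fold enrichment of 34.5 and lay 180950 bp from its TSS. The one nearest TRIM33, a ubiquitin ligase of the same pathway, had 31.1 at a distance of 164083 bp. The one nearest LBR, the lamin B receptor gene, had 35.2 at 46585 bp. All of these overlapped H3K9ac, with H3K9ac fold enrichments between 3.82 and 4.68.

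The member in an intron of PLXNB2, a semaphorin receptor gene, was nearest to the TSS of MAPK11, a p38 kinase gene, and had a fold enrichment of 35.3 without H3K9ac. It overlapped H3K36me3. Of the 12 strongest members, it and the GSE1 member were the ones without H3K9ac. The next strongest member without H3K9ac lay in the non-coding gene LINC02376 on chromosome 12, with 27.8. It was 985827 bp from the nearest coding TSS, that of TMEM132C, beyond the 90th percentile of the members (142230 bp).

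Of the 12 strongest members, 5 lay on chromosome 17, the SOX9 member included. Of all 7962 members, 647 lay on that chromosome. DNA copy number was not measured, and its part in this ranking was not tested. The member nearest TMEM235 had a fold enrichment of 33.3 and an exact core. The member nearest EIF1, a translation initiation factor gene, had 33.1. The member in an intron of BAIAP2, an actin regulator gene, had 31.6 and lay on an H3K4me1 interval of 14026 bp with a fold enrichment of 10.7. The member in an exon of ENPP7, an intestinal sphingomyelinase gene, had 30.4. All of these members overlapped H3K9ac.

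The widest members were not the strongest. The widest, 10560 bp at chr1:228757208-228767767, covered the 5S ribosomal RNA genes and had a fold enrichment of 3.17. The next lay in introns of TTC34, at 9409 bp and 9105 bp, with 6.40 and 8.63.

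At the loci that the study assayed by PCR, enhancer CTCF intervals lay within 50 kb of the TSS of EGR1, TBX3, RPL32 and POU5F1, and none lay that close to UBE2B or NR4A3. The EGR1 member had a CTCF fold enrichment of 15.4, on H3K4me1 of 3.50 and H3K9ac of 4.03, and its nearer end was 14889 bp upstream of the EGR1 start. Another CTCF interval, with a fold enrichment of 15.02, lay from −2283 to −475 bp relative to that start and overlapped H3K4me3, so the CTCF intervals at the EGR1 promoter and at this upstream place were of like strength. The nearest coding TSS to the member was that of REEP2, 10661 bp away, its H3K4me1 and H3K9ac intervals were below the study's limits, and the study used the place as a negative control for RNA polymerase II. H3K9ac was unequal between the places, with 15.2 at the promoter. TBX3, a T-box repressor gene, had 2 members, at 7.89 and 12.1, and the stronger held both an exact core and AP-1. RPL32, a ribosomal protein gene, had 1 at 14.7 with an exact core. The member within 50 kb of POU5F1, a pluripotency factor gene, had 16.7 and no H3K9ac. It lay 32723 bp from the POU5F1 start, in an exon of PSORS1C2 and 1107 bp from that gene's TSS.

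**Figure D5:**
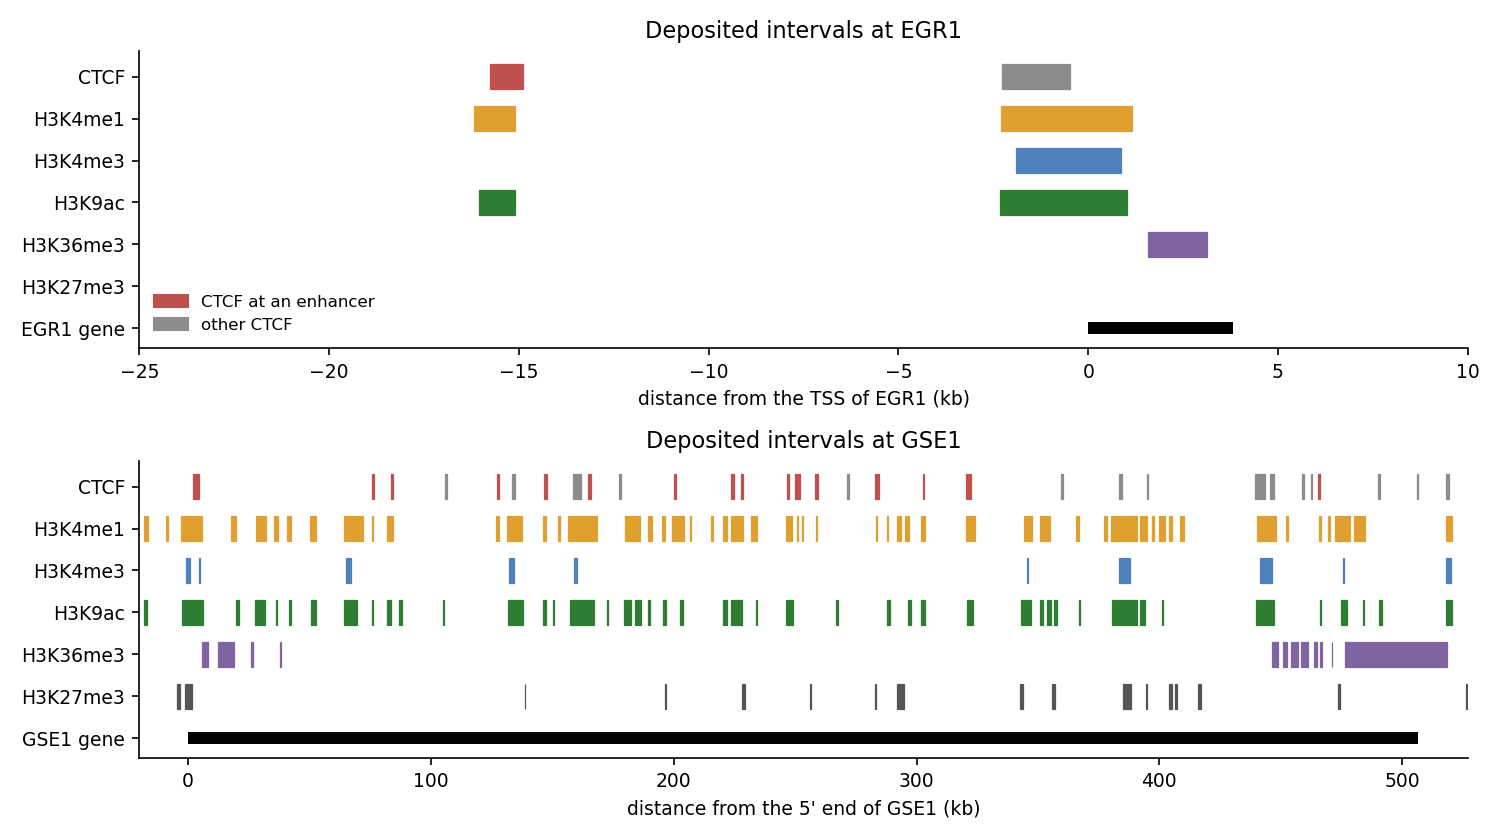
Bars show the deposited intervals of the 6 marks by distance (kb) from the TSS of EGR1 (top) and from the 5′ end of GSE1 (bottom), with enhancer CTCF intervals in red and other CTCF intervals in grey. Upstream of EGR1 lies 1 enhancer CTCF interval about as strong as the CTCF interval at the promoter, and GSE1 has 16 over its length.

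GSE1 was also the gene with the most enhancer CTCF intervals in its body. It held 16 of them among 30 CTCF intervals, 31.6 members per Mb against 2.57 per Mb over the genome, and 10 of the 16 overlapped H3K9ac. CAMTA1, a calcium-responsive transcription factor gene, and RAD51B, a recombination gene, held 9 each. All 9 in RAD51B overlapped H3K9ac, and 5 of the 9 in CAMTA1 did. The density was 9.14 per Mb in CAMTA1 and 9.89 per Mb in RAD51B, which are longer genes than GSE1.

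In some of the 10 genes with the most members, nearly all CTCF intervals were members. These genes were picked by that number. Over the genome, 7962 of 44812 CTCF intervals were members, and 60.8% of the members overlapped H3K9ac. CUEDC1 held 7 members among 8 CTCF intervals, or 74.3 per Mb, and all 7 overlapped H3K9ac. TOM1L2, an endosomal trafficking gene, held 7 of 8 at 54.3 per Mb. AP1S3, which encodes a subunit of the clathrin adaptor AP-1 and not of the transcription factor, held 8 of 9. The other genes had a smaller part of their CTCF intervals in the enhancer group. CACNA1A, a calcium channel gene, held 8 members among 17 CTCF intervals. BCAR3, CTBP2 and PRKAG2 held 7 each, and CTBP2, a corepressor gene, had H3K9ac at all 7.

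The lists of genes were read against all protein-coding genes, of which 40.1% had an enhancer CTCF interval within 50 kb of the TSS. The cell line itself was checked first by H3K4me3, which lay over the TSS of 7 of 10 epithelial and intestinal marker genes and 60% of all coding genes. CDH17, LGALS4 and VIL1 lacked it. It lay over 0 of 14 marker genes of other cell types. The lists were short, and their counts are descriptions.

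Of 15 genes of the intestinal epithelium, 10 had an enhancer CTCF interval within 50 kb. CDX1, an intestinal homeobox gene, had 3, with fold enrichments from 8.52 to 19.2, although no H3K4me3 lay over its TSS. CDX2, its relative, had 2, and so did CEACAM5, an adhesion molecule gene. Of 15 Wnt targets and feedback genes, 8 had 1 or more. ASCL2, CCND1 and CD44, which serve stem cell identity, the cell cycle and adhesion, had 2 each. Both members at CCND1 and both at CD44 overlapped H3K9ac, and those at ASCL2 did not.

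Immediate early genes, which respond fast to growth signals, had an enhancer CTCF interval in 8 of 15 cases. JUND had 3, and FOSL1 and IER2 had 2 each. FOS, JUN and NR4A3 had none, although each had H3K4me3 over its TSS. Of 14 genes of EGF receptor signalling, 5 had a member, near the background. The receptor gene ERBB2 and the ligand genes EREG and HBEGF had 3 each, so the members of this list were concentrated at few genes. EGFR had no CTCF interval of any kind within 50 kb.

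Of 14 CTCF and cohesin genes, 6 had a member, also near the background. CTCF itself and SMC3, a cohesin subunit gene, had 2 each, all with H3K9ac, and CTCFL, a germline relative of CTCF, had 1. Of 15 genes for enzymes that write or erase H3K4 methylation and histone acetylation, 9 had a member. SETD1A, an H3K4 methyltransferase gene, had 3, and KMT2D and SETD1B had 2 each. The genes of other cell types were not free of members, with 7 of 14. INS, the insulin gene, had 4, TNNT2 of heart muscle 3 and APOA1 of liver 2. Enhancer CTCF intervals near a gene were therefore not limited to genes with H3K4me3 at their start.

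The edge of the rule was gradual for H3K9ac. The members that touched H3K4me1 by at most 50 bp numbered 78, with a median fold enrichment of 5.94 and H3K9ac at 20.5%. The 74 CTCF intervals with neither mark that missed H3K4me1 by at most 50 bp had 6.68 and 21.6%. Intervals with neither mark that lay more than 1000 bp from H3K4me1 had H3K9ac at 3.71%. The least overlap was 2 bp, at a member near GNPNAT1 (chr14:53290174-53290752) with a fold enrichment of 13.4 and at a member near RLIM on X with 4.0. The nearest miss was 3 bp, at an interval near BOC (chr3:113006640-113007486) with 17.4 and at an interval near PTGES2 on chromosome 9 with 6.68. In each pair the stronger interval overlapped H3K9ac and the weaker did not. At the other edge, 368 members had an H3K4me3 interval within 1000 bp, and H3K9ac overlapped 81.8% of them. Members with H3K4me3 close by were thus more often acetylated than the group as a whole. On either side of the H3K4me1 edge, within 50 bp, the H3K9ac shares lay close together. The AP-1 sequence lay in 3.85% of the members at this edge and 6.76% of the intervals just outside it. These groups were small, and their differences were not tested.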

How the data were processed

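Deposited lists of 6 marks, from 1 well and 1 library each, were used. H3K27Ac was not analysed here. The authors aligned reads to hg19 with BWA 0.7.12 and wrote broad intervals. The Methods name MACS2 and paired-end reads, whereas the notes name MACS 1.4.2 and the labels also list single-end reads. The values that the authors deposited are a fold enrichment, a ratio over local background, with a −log10 q-value and a −log10 p-value for each interval. All deposited intervals were used, and an overlap needed 1 bp. The limits of the study were a q-value under 1e-03 and fold enrichment over 2 for H3K4me1 and H3K27me3 (and H3K27Ac), and 1e-10 and 5 for other histone marks. CTCF, for which no limits are named, was read with the latter. Depth is unknown from the lists.

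Protein-coding genes (20163) were read from release 44 of GENCODE, lifted to hg19. The TSS was the start of the canonical transcript, present for 19881, or else the 5′ end. Sequences were read from hg19 and searched on both strands in 300 bp around each centre, and shares of the genome are over 9528558 windows of the same length. Python 3.11.15, numpy 2.4.6, pandas 2.3.3, scipy 1.17.1, numba 0.67.0, pyfaidx 0.9.0.4, matplotlib 3.10.9, samtools 1.23.1 and bedtools 2.31.1 were used. Overlaps were tested on simulated data and checked against bedtools.

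The members and lists were chosen with earlier results of these data known. Named were the 12 members with the highest fold enrichment, the 3 widest, the 3 highest without H3K9ac, members within 50 kb of 6 loci the study assayed, the 5 H3K4me1 intervals with the most members, the 10 genes with the most members in their body, and up to 3 genes of each list with the most members, ties in alphabetical order. Others were named after their values were seen. PECAM1 was not matched. With 1 library per mark, no test was run. Alternatives were the limits on all lists or on CTCF, other overlaps, a gap to H3K4me3, merging, other starts, other core searches and a window of 100 kb.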

Additional observations from a re-analysis of the deposited data

How the results depend on the processing

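No paired analysis was possible because only 1 library exists for each mark, so none could be left out either. Of 70 values under other settings, 30 lay within the interval of the reported value or, for counts, within 1.5 times it, 39 lay outside and 1 changed sign. Merging CTCF intervals within 1000 bp joined 0 of them, so its 11 values say nothing about stability. Unless stated, the cause was not tested.

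With the limits of the study on all lists, the number of members was 4283, the H3K9ac share 14.3% and its difference from the remaining intervals 0.0788 points. All lists changed together here, and the part of each was not tested. The median width was 810 bp (difference 86 bp), fold enrichment 12.5 (difference 2.42), TSS distance 20278 bp, and the core share 17.6%, with its difference reversed to −1.41 points. Higher fold enrichments follow from the limits themselves. With the limits on CTCF alone, the H3K9ac share was 63.4%, width 784 bp (difference 60 bp), fold enrichment 11.9 (difference 1.96), TSS distance 22940.5 bp and core share 19.3% (difference 0.628 points).

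With at least 50% of the CTCF interval covered, the H3K9ac share was 55.1% (difference 34.3 points), width 720 bp (difference 76 bp) and fold enrichment 9.62 (difference 2.75). With the CTCF centre inside H3K4me1, the H3K9ac share was 66.7% (difference 43.1 points), width 726 bp (difference 83 bp) and the fold enrichment difference 2.90. With no H3K4me3 within 1000 bp, the H3K9ac difference was 36.4 points, the TSS distance 26276 bp and its difference −8825 bp. With all transcript starts, the TSS distance was 10516 bp (difference −4063 bp), and with the starts of all genes 9212 bp (difference −1891 bp), since more starts were counted. With 1 mismatch in the core, the core share was 47.1% (difference 3.68 points), and over the whole interval 19.1% (difference 4.24 points), since more sequences could match.

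For AP-1, whose alternatives were chosen after seeing the data, the share lay between 6.33% and 9.0% and its difference between 2.52 and 5.0 points. The 7 gene lists had between 7 and 12 genes with a member at 100 kb, each within 1.5 times its count at 50 kb. Of all coding genes, 56.5% had one at 100 kb, above CTCF and cohesin and EGF receptor signalling, at 50% each.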

Other observations

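CpG dinucleotides, the sites of DNA methylation, were counted in the 300 bp around each centre. Enhancer CTCF intervals had a median of 6 of them, intervals with H3K4me3 26 and intervals with neither mark 3. The members thus lay between the other groups. A second exact core in the same interval was found in 44 members, 0.553% (0.412 to 0.741%), and in 0.247% of the intervals with neither mark. Of the members, 16 touched 2 or more H3K4me1 intervals. H3K27me3 past its limits overlapped 61 members, beside 1.06% of all CTCF intervals and 1.90% of those with H3K4me3.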
